A study of Mus musculus with 6 samples.

Results

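Lipid droplets store triglyceride inside a phospholipid shell, and 10 genes that coat these droplets, help to form them or control the release of their fat were followed in mouse colorectal cancer spheroids. They are Plin2, Plin3, Bscl2, Pnpla2, Abhd5, Hilpda, G0s2, Lipe, Mgll and Angptl4. They were chosen by gene symbol, and all 10 were found among the 23399 genes of the count table. Polyadenylated RNA came from CMT93 spheroids. CMT93 is an established colorectal carcinoma line of the mouse, and its genotype is given as wild type. The palmitate group received 200 µM sodium palmitate, a saturated fatty acid, dissolved in ethanol and bound to bovine serum albumin. The vehicle group received ethanol and albumin alone. Each group had 3 libraries, and cells of both spent 1 week in monolayer and 5 days as spheroids on soft agar with Matrigel under the same treatment. The labels do not say whether the libraries of a group came from separate cultures, so the p-values measure only the spread between libraries, which may be technical. The comparison asks how these genes differ between spheroids grown with and without palmitate.

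Triglyceride in a droplet is broken down in steps: adipose triglyceride lipase (ATGL, from Pnpla2) removes the first fatty acid, hormone-sensitive lipase (from Lipe) the second, and monoacylglycerol lipase (from Mgll) the last. ATGL is activated by the protein of Abhd5 and inhibited by the proteins of G0s2 and Hilpda, while perilipins (Plin genes) coat the droplet and limit access to it. Seipin, the product of Bscl2, sits where a droplet buds from the endoplasmic reticulum, and the secreted protein of Angptl4 inhibits lipoprotein lipase outside the cell.

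The promoters of the perilipin pair are shown because the genes differed in response, and both hold a CCAAT element at almost the same place. The sequences are the 250 bases before the transcription start in RefSeq on build GRCm38.p6, written 5′ to 3′ on the gene's strand, and capitals mark a CCAAT box or its reverse complement ATTGG.
Plin2, chr4:86670060-86670309, minus strand: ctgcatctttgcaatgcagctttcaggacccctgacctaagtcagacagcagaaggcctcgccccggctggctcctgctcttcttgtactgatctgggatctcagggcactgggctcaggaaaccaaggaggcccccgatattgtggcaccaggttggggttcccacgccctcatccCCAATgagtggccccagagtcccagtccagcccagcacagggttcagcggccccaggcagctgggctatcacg
Plin3, chr17:56290512-56290761, minus strand: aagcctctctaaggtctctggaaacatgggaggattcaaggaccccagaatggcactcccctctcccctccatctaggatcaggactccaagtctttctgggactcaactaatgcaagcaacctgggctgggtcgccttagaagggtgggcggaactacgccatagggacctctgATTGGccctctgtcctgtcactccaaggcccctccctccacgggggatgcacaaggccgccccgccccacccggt
The element begins 73 bases before the start of Plin2 and 75 bases before that of Plin3, on opposite strands, and 33.8% of 32851 RefSeq start sites hold CCAAT on either strand of this window. The place is not particular to the pair, as Bscl2 holds the element 69 and 187 bases before its first start. The pair differs in GGGCGG, the core of a GC box, which has 3 matches for Plin3 and none for Plin2 and is held by 32.7% of start sites on either strand. Among the other members with a RefSeq promoter, GGGCGG is present before at least 1 start of Pnpla2, Abhd5, Hilpda, G0s2, Lipe and Mgll. It is absent before every start of Bscl2. Hilpda and Lipe hold it only before the first start and Mgll only before the second, whereas the 32.7% counts each start site. Lipe holds 6 matches before its first start. For Hilpda, a short stretch before the second of its RefSeq starts is shown because it holds ACGTG, in capitals, the core letters of a hypoxia response element.
Hilpda, chr6:29272573-29272597, plus strand: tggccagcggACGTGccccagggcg
ACGTG on either strand was present in the 250 bases before 16.6% of start sites, a share that includes the overlapping CACGTG, held by 6.02%. Among the members with a RefSeq promoter, Lipe and Mgll also hold ACGTG, in both cases as CACGTG before the first start, and Mgll holds it again before the second. TATAAA (12.4% of start sites) and direct repeats of AGGTCA (0.0335%) or AGGNCA (0.338%) with one spacer base N, searched on both strands, had no match in these members, which says only that those letters are not in the windows. These matches describe letters only and do not show that a factor binds there.

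With palmitate, message rose for the droplet coat gene Plin2, for Angptl4, for the ATGL inhibitor Hilpda and slightly for the lipase gene Lipe. It fell slightly for the second coat gene, Plin3, and for Bscl2. The lipase gene Pnpla2 itself, its activator Abhd5 and the scarce Mgll were not called, and the other ATGL inhibitor, G0s2, had at most 2 counts in any library. In all, 4 of the 9 tested genes were called higher and 2 lower (two-sided quasi-likelihood test of edgeR, Benjamini-Hochberg adjustment over all genes, threshold 0.05). Of all 14987 tested genes 52.8% were called, 27.4% higher and 25.4% lower, so the 66.7% of tested members called is not far from the background. Their median log2 fold change was 0.16, against 0.00068 over all tested genes, and their median absolute log2 fold change was 0.20, against 0.16. Groups did not overlap for 6 of the 9, 4 with palmitate above and 2 below, against 57.8% of all tested genes, 29.7% above and 28.1% below. DESeq2 called 3 members, all higher, against 33.4% of the genes it gave an adjusted p, and glmTreat against a minimum fold of 1.2 called 2 higher, against 6.46% of genes (15.2% in either direction). Without palmitate replicate 3, vehicle replicate 2 or vehicle replicate 3, 1 member in place of 2 was called lower.

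**Figure D1:**
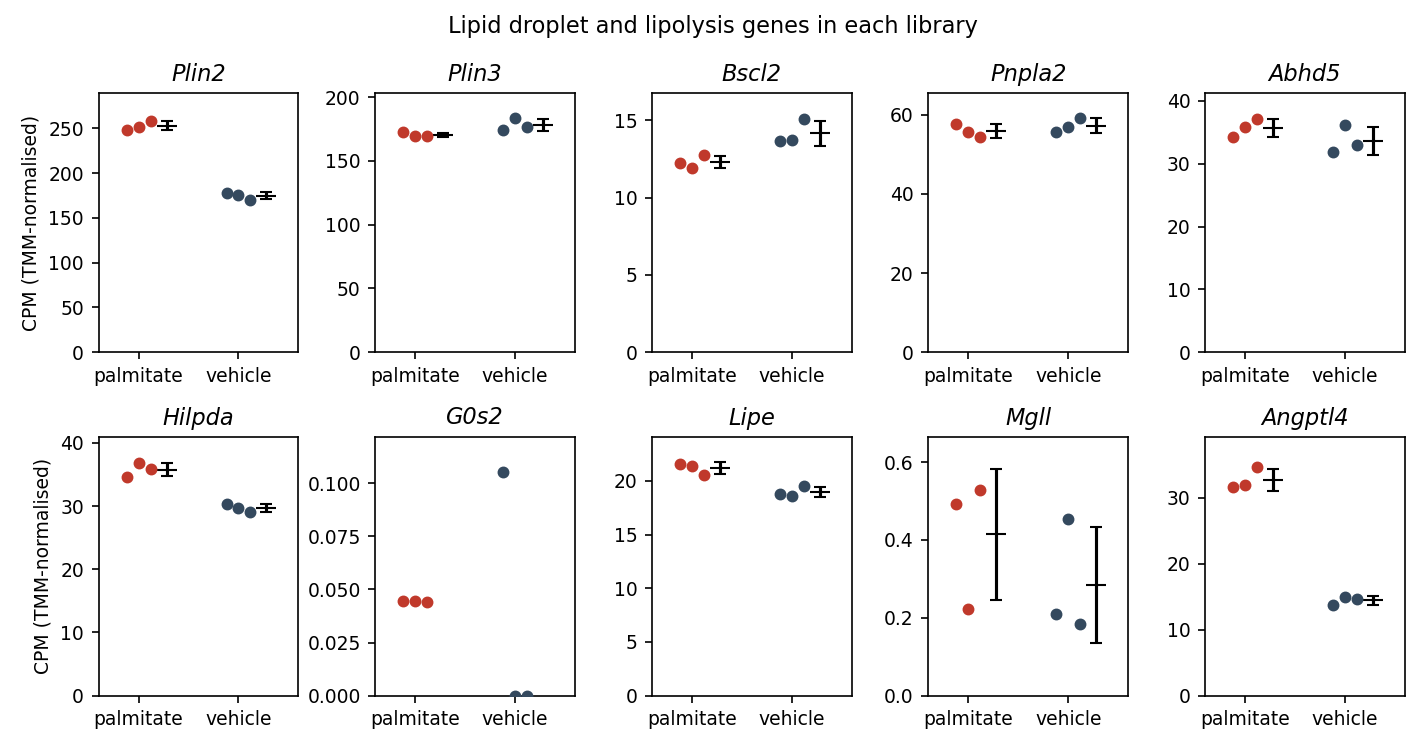
TMM-normalised CPM of each gene in the 3 palmitate and 3 vehicle libraries (points), with the mean and SD beside them except for G0s2; each panel has its own axis from 0. Palmitate points lie above all vehicle points for Plin2, Hilpda, Lipe and Angptl4 and below them for Plin3 and Bscl2.

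Libraries held 22.5 to 22.9 M counts with palmitate and 18.9 to 21.9 M with vehicle, so every palmitate library was the deeper. Thinning every library to the shallowest total kept 4 members called higher and 2 lower. The epithelial markers fixed for the check summed to 6920 to 7030 CPM with palmitate and 7600 to 7660 CPM with vehicle over the 9 of 10 in the table. Most were abundant, but Krt20 was near 0 and Cdx2 was scarce, at 2.46 CPM with palmitate and 1.72 CPM with vehicle. Krt8, Krt18, Cldn4 and Cdh1 were called lower with palmitate and Krt19 and Cdx2 higher, while Epcam and Vil1 were not called (edgeR). Of 9 adipocyte markers 4 were in the table, and they summed to 21.2 to 22.1 CPM with palmitate and 21.7 to 22.8 CPM with vehicle, most of it from Pparg. In that list Pparg rose to 19.5 ± 0.677 CPM with palmitate, against 17.5 ± 0.171 CPM with vehicle (log2 fold change 0.15, adjusted p = 0.0231, edgeR), and Fabp4 fell to 0.976 ± 0.173 CPM with palmitate, against 3.87 ± 0.514 CPM with vehicle (SD, n = 3 libraries each; log2 fold change -1.98, adjusted p = 6.23e-16, edgeR). The part of these markers in the results was not tested. Fibroblast, endothelial and leukocyte markers, each with 4 genes in the table, summed to at most 10.8 CPM in any palmitate library and 9.11 CPM in any vehicle library. These highest sums were of the leukocyte list and mostly Cd68, at 9.66 CPM with palmitate and 7.14 CPM with vehicle. Cd68 was called higher with palmitate, and Ptprc, Col1a1 and Cdh5 lower (edgeR). Less RNA per cell and fewer cells of a state cannot be told apart in bulk spheroids.

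Plin2, which coats cytosolic droplets in most cell types and is degraded when it is not bound to lipid, had 248, 251 and 258 CPM in the palmitate libraries, against 178, 176 and 170 CPM in the vehicle libraries. The groups were far apart, with a gap of 70.4 CPM between the nearest libraries. The difference was 1.45-fold, a log2 fold change of 0.53 (SE 0.0212, adjusted p = 2.67e-38, edgeR). It passed also against a minimum fold of 1.2 (adjusted p = 1.07e-20, glmTreat). By size of rise, Plin2 stood at place 742 of the 14987 tested genes.

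Plin3, also known as TIP47, moves between cytosol and small new droplets. It had 172, 170 and 170 CPM in the palmitate libraries, against 174, 184 and 177 CPM in the vehicle libraries. The palmitate libraries lay just below the vehicle ones, with a gap of 1.80 CPM. The log2 fold change was -0.06 (SE 0.0224, adjusted p = 0.0123, edgeR). The call was lost with DESeq2 (adjusted p = 0.124), and without vehicle replicate 2 it was lost as well (adjusted p = 0.154), with a log2 fold change of -0.04. It was also lost without palmitate replicate 3 (adjusted p = 0.0590, edgeR) and with no count filter (adjusted p = 0.0514, edgeR).

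The balance of the 2 perilipins shifted in counts within each library, a ratio that does not depend on scaling between libraries. There were 1.44, 1.48 and 1.52 counts of Plin2 for each count of Plin3 with palmitate, against 1.02, 0.957 and 0.963 with vehicle. The 2 groups did not overlap, and the log2 ratio was higher by 0.60 with palmitate (exact permutation test, two-sided, p = 0.1, the smallest that 3 against 3 libraries can give; adjusted p = 0.167 over the 5 ratios computed). Per kilobase of exon, Plin2 reached 72.0 ± 1.42 CPM with palmitate and 49.7 ± 1.14 CPM with vehicle (SD, n = 3 libraries each). Plin3 reached 45.1 ± 0.403 CPM per kilobase with palmitate and 47.1 ± 1.30 with vehicle. By this measure the levels of the pair lay close together in vehicle spheroids, 48.5 to 50.7 for Plin2 and 46.0 to 48.5 for Plin3, and stood apart with palmitate. With the longest transcript as the length, Plin2 was the higher in both groups, with 134 CPM per kilobase with palmitate and 92.5 with vehicle, so closeness under vehicle depends on the length used.

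Bscl2 had 12.2, 11.9 and 12.7 CPM with palmitate, against 13.6, 13.7 and 15.0 CPM with vehicle. All palmitate libraries were below all vehicle libraries, with a gap of 0.914 CPM. The log2 fold change was -0.20 (SE 0.0702, adjusted p = 0.0109, edgeR), and the call was lost without vehicle replicate 3 (log2 fold change -0.16, adjusted p = 0.101, edgeR) and with DESeq2 (adjusted p = 0.125). In the earlier annotation 6.75% of its exon bases overlap Gng3 on the opposite strand and 4.05% another protein-coding gene on the same strand. The sources used here do not say whether reads were counted by strand, so part of its count is uncertain.

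Pnpla2 had 57.7, 55.7 and 54.4 CPM with palmitate, against 55.6, 57.0 and 59.2 CPM with vehicle, and the groups overlapped. Its log2 fold change was -0.04 (SE 0.0363, adjusted p = 0.428, edgeR), and it lay between -0.056 (without palmitate replicate 1) and -0.012 (without vehicle replicate 3) with each library left out in turn, never called. Abhd5, whose protein (CGI-58) activates ATGL, had 34.2, 35.8 and 37.1 CPM with palmitate, against 31.8, 36.2 and 33.0 CPM with vehicle, again with overlap. Its log2 fold change was 0.08 (SE 0.0462, adjusted p = 0.131, edgeR). Without vehicle replicate 2 the log2 fold change of Abhd5 was 0.14 and passed (adjusted p = 0.0208, edgeR), whereas without vehicle replicate 1 it was 0.046 (adjusted p = 0.478, edgeR). An antisense gene shares 16.0% of its exon bases in the earlier annotation.

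Hilpda encodes a small protein, induced by hypoxia and by fatty acids, that binds ATGL and inhibits it. It had 34.7, 36.7 and 35.9 CPM with palmitate, against 30.3, 29.7 and 29.1 CPM with vehicle. The groups were separated by a gap of 4.40 CPM. The difference was 1.21-fold, a log2 fold change of 0.27 (SE 0.0457, adjusted p = 3.54e-07, edgeR), and DESeq2 called it too (adjusted p = 0.000167). It was not called against a minimum fold of 1.2 (adjusted p = 0.712, glmTreat).

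G0s2, the other ATGL inhibitor, is abundant in fat and liver. It had 1 count in each palmitate library, against 2, 0 and 0 counts in the vehicle libraries. Summed over the group, this came to 3 counts, or 0.0441 CPM (exact Poisson 95% interval 0.00909 to 0.129), with palmitate and 2 counts, or 0.0321 CPM (0.00389 to 0.116), with vehicle. Such intervals cover counting error only. A count of 0 in a vehicle library allows up to 0.139 CPM. G0s2 did not pass the filter on low counts, and no difference was detectable at this depth.

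The ratio of Hilpda to Pnpla2 counts was 0.601, 0.659 and 0.661 with palmitate, against 0.545, 0.520 and 0.491 with vehicle. Every palmitate library had the higher ratio, and the log2 ratio was higher by 0.30 (exact permutation test, two-sided, p = 0.1, the smallest possible, adjusted p = 0.167). For Abhd5 to Pnpla2 the ratios were 0.592, 0.643 and 0.682 with palmitate, against 0.572, 0.635 and 0.557 with vehicle. Those groups overlapped (log2 difference 0.12, exact permutation test, two-sided, p = 0.2), and the difference was 0.0723 without palmitate replicate 3 and 0.177 without vehicle replicate 2. Message for Hilpda relative to Pnpla2 was thus higher in every palmitate library, while the ratios of Abhd5 to Pnpla2 overlapped. Whether the 2 ratios differed in their response was not tested. No ratio was computed for the other inhibitor, G0s2, which had 0 counts in some vehicle libraries.

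**Figure D2:**
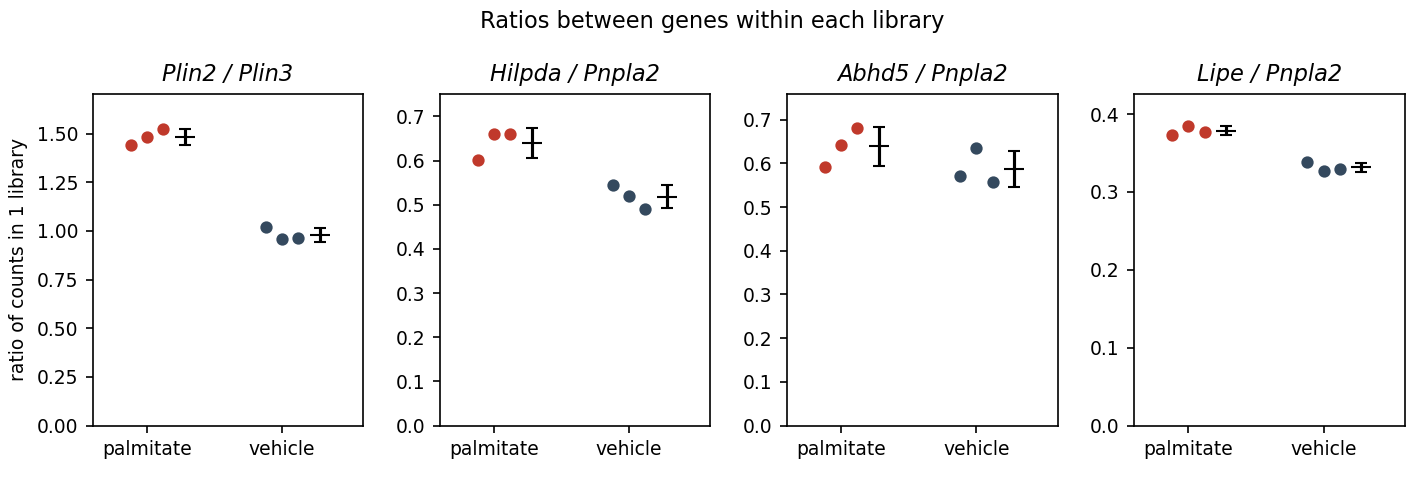
Ratio of the counts of one gene to another within each library, 3 palmitate and 3 vehicle points per panel with the mean and SD beside them, on axes from 0. The groups are apart for Plin2 over Plin3, Hilpda over Pnpla2 and Lipe over Pnpla2 and overlap for Abhd5 over Pnpla2. Mgll over Pnpla2 was computed but is not drawn.

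Lipe had 21.6, 21.4 and 20.5 CPM with palmitate, against 18.8, 18.6 and 19.5 CPM with vehicle. The palmitate libraries lay above all vehicle libraries, with a gap of 0.996 CPM. The difference was 1.12-fold, a log2 fold change of 0.16 (SE 0.0568, adjusted p = 0.0153, edgeR). The call was lost with DESeq2 (adjusted p = 0.126) and without vehicle replicate 2 (adjusted p = 0.0647, edgeR). An antisense gene shares 15.6% of its exon bases in the earlier annotation, so its count is also uncertain. Lipe to Pnpla2 stood at 0.374, 0.385 and 0.377 counts with palmitate, against 0.338, 0.326 and 0.330 with vehicle. The log2 difference was 0.19 (exact permutation test, two-sided, p = 0.1, the smallest possible, adjusted p = 0.167).

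Mgll, which also degrades the endocannabinoid 2-arachidonoylglycerol, was scarce. It had 11, 5 and 12 counts in the palmitate libraries, against 4, 10 and 4 counts in the vehicle libraries. One library of each group went the other way, and the groups overlapped. The summed level was 0.411 CPM (exact Poisson 95% interval 0.273 to 0.595) with palmitate and 0.289 CPM (0.171 to 0.456) with vehicle. The log2 fold change was 0.52 with an SE of 0.424 (adjusted p = 0.314, edgeR). Over the libraries left out in turn it ranged from 0.27 to 1.05. Ratios of Mgll to Pnpla2 counts overlapped between the groups (log2 difference 0.60, exact permutation test, two-sided, p = 0.2).

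Angptl4, a target of PPAR receptors in many tissues, had 31.6, 31.9 and 34.6 CPM in the palmitate libraries, against 13.7, 14.9 and 14.7 CPM in the vehicle libraries. Every palmitate library was above every vehicle library, with a gap of 16.7 CPM. The difference was 2.26-fold, a log2 fold change of 1.18 (SE 0.0560, adjusted p = 5.75e-33, edgeR), and it passed against a minimum fold of 1.2 (adjusted p = 9.45e-27, glmTreat). It was the greatest change among the 9 tested members and stood at place 190 by size of rise among all tested genes.

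The authors' deposited table, made with DESeq2 from the same libraries, gave similar fold changes for all 9 tested members. It is therefore not evidence separate from the DESeq2 results given above. In the authors' deposited table the log2 fold change was 1.18 for Angptl4 (q = 1.68e-45), 0.54 for Plin2 (q = 2.02e-73) and 0.27 for Hilpda (q = 0.000171). These 3 were the only members with a q under 0.05 in the authors' deposited table, where 24.2% of 23399 genes had one. In the same authors' deposited table the q was 0.127 for Plin3, 0.128 for Bscl2 and 0.129 for Lipe, the 3 members called here by edgeR with the smallest effects for their error.

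**Figure D3:**
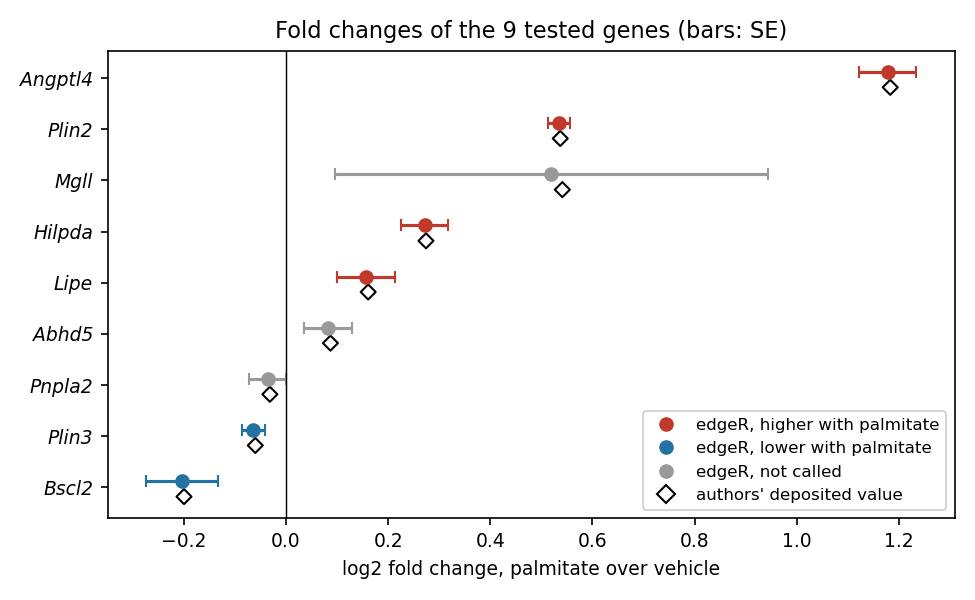
Log2 fold change, palmitate over vehicle, of the 9 tested genes from edgeR (circles, bars are SE, coloured by call) and from the authors' deposited table (diamonds). Angptl4 stands at 1.18 and Plin2 at 0.53, while Mgll at 0.52 has the widest error, with an SE of 0.424.

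Per kilobase of exon, the order of mean levels with palmitate was Plin2, Plin3, Hilpda, Pnpla2, Angptl4, Abhd5, Lipe, Bscl2, Mgll and G0s2. Hilpda, a short transcript, had 32.4 ± 0.943 CPM per kilobase with palmitate and 26.9 ± 0.545 with vehicle (SD, n = 3 libraries each), above Pnpla2 with 18.5 ± 0.556 with palmitate and 19.0 ± 0.602 with vehicle. Angptl4 had 9.23 ± 0.462 CPM per kilobase with palmitate and 4.07 ± 0.179 with vehicle, whereas Abhd5 had 5.99 ± 0.243 with palmitate and 5.65 ± 0.379 with vehicle. Angptl4 therefore stood above Abhd5 with palmitate and below it with vehicle, without overlap of libraries in either group. With the longest transcript as the length, Angptl4 stayed below Abhd5 in both groups, at 9.88 and 11.3 CPM per kilobase with palmitate. Lipe, at 3.60 ± 0.0967 with palmitate and 3.22 ± 0.0822 with vehicle, and Bscl2, at 2.09 ± 0.0679 with palmitate and 2.40 ± 0.133 with vehicle, were the lowest of the readily detected genes.

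Among genes of at least 1 CPM, those whose log2 CPM followed Plin2 most closely over the 6 libraries were Id1, Ash2l and Acadvl (Pearson r of 0.999 each). For Angptl4 they were Lnx1, Ccnjl and Chchd5 (r of 0.999 each). These r describe 2 separated groups of 3 libraries, and 13.6% of 13215 genes exceeded 0.95 with Plin2 and 13.7% with Angptl4. No such value was computed for G0s2, which was not tested.

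Other genes of droplet coat and shape moved in both directions and mostly by little. Of 20 tested genes in this list, 9 were higher, 4 lower and 7 not called, with a median log2 fold change of 0.07, beside 27.4% higher and 25.4% lower among all tested genes. DESeq2 called 1 lower, beside 2579 of the 17048 genes to which it gave an adjusted p. The greatest rise was in Tmem159, now named Ldaf1, whose protein partners seipin at sites of droplet formation. It had 1.92, 2.17 and 2.25 CPM with palmitate, against 0.685, 0.910 and 0.415 CPM with vehicle (log2 fold change 1.65, SE 0.236, adjusted p = 4.69e-09, edgeR). Bscl2 fell slightly by edgeR, a call lost with DESeq2 (adjusted p = 0.125) and without vehicle replicate 3. Ldah, a droplet-associated hydrolase, rose by 0.38 on the log2 scale, Rab8a, a small GTPase linked to droplet fusion, by 0.29, and Lpcat1, a phospholipid acyltransferase, by 0.24. Against a minimum fold of 1.2 (glmTreat), Tmem159 and Ldah kept their call, whereas Rab8a and Lpcat1 lost theirs. The 4 called lower by edgeR were Rab18 (log2 fold change -0.11), Spg20 (-0.12), Osbpl2 (-0.10) and Vps13a (-0.06).

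The other perilipins were scarce. Plin4 had 1.08 ± 0.324 CPM with palmitate and 0.877 ± 0.0809 with vehicle (SD, n = 3 libraries each) and was not called (adjusted p = 0.345, edgeR). Plin5, which ties droplets to mitochondria in oxidative tissues, did not pass the filter on low counts. It summed to 27 counts, or 0.397 CPM (exact Poisson 95% interval 0.261 to 0.577), with palmitate and 6 counts, or 0.0963 CPM (0.0353 to 0.210), with vehicle. All 3 palmitate libraries, at 0.358, 0.577 and 0.264 CPM, stood above the 3 vehicle libraries, at 0.0527, 0.182 and 0.0462 CPM. Cidec, a droplet fusion gene of adipocytes, summed to 10 counts with palmitate and 3 with vehicle.

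Other neutral lipid hydrolases also divided. Of 14 tested, 5 were higher, 3 lower and 6 not called, with a median log2 fold change of 0.06, beside the same 27.4% and 25.4% of all tested genes. DESeq2 called 3 higher, beside 3113 of the 17048 genes to which it gave an adjusted p. Without vehicle replicate 1, edgeR called 3 higher as well. Dagla, which makes 2-arachidonoylglycerol, the substrate of the Mgll enzyme, had 1.16, 1.02 and 1.15 CPM with palmitate, against 5.58, 5.41 and 5.31 CPM with vehicle. It fell by 2.28 on the log2 scale (SE 0.162, adjusted p = 2.93e-22, edgeR). Its relative Daglb, at 23.1 ± 0.695 CPM with palmitate and 21.0 ± 0.948 with vehicle, rose slightly (log2 fold change 0.14, adjusted p = 0.0235, edgeR). The call for Daglb was lost with DESeq2 (adjusted p = 0.158) and, in edgeR, without palmitate replicate 3, vehicle replicate 1 or vehicle replicate 3 (adjusted p = 0.0979, 0.0510 and 0.148). Abhd6, another hydrolase of monoacylglycerol, rose to 38.1 ± 0.928 CPM with palmitate, against 27.8 ± 1.45 CPM with vehicle (SD, n = 3 libraries each; log2 fold change 0.46). Ddhd2, a triglyceride and phospholipid hydrolase, rose by 0.38, while Lipa, the acid lipase of lysosomes, fell by 0.30 on the log2 scale, to 50.4 ± 1.25 CPM with palmitate, against 61.8 ± 0.863 CPM with vehicle.

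Among genes of lipoprotein lipase and its control, where the protein of Angptl4 acts, 2 of 12 tested were higher, 7 lower and 3 not called, with a median log2 fold change of -0.17, beside 27.4% higher and 25.4% lower among all tested genes. DESeq2 called 1 higher, beside 3113 of the 17048 genes to which it gave an adjusted p. Without palmitate replicate 1 or vehicle replicate 3, edgeR called 1 higher as well. Lpl itself had 9.08, 10.0 and 8.28 CPM with palmitate, against 10.9, 10.7 and 11.2 CPM with vehicle. The groups did not overlap, and Lpl fell by 0.25 on the log2 scale (SE 0.0817, adjusted p = 0.00623, edgeR). The call for Lpl was lost with DESeq2 (adjusted p = 0.0915) and without palmitate replicate 3 (log2 fold change -0.19, adjusted p = 0.0763, edgeR). The lipoprotein receptor genes Lrp1 and Vldlr fell by 0.36 and 0.24. Glmp, a lysosomal membrane protein gene, fell by 0.19, and Sel1l, needed for the maturation of lipoprotein lipase, rose by 0.20.

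In the list of lipolytic signalling, fatty acid binding and protein turnover, 9 of 27 tested were higher, 14 lower and 4 not called, with a median log2 fold change of -0.08, again beside 27.4% higher and 25.4% lower among all tested genes. Fabp5, a fatty acid binding protein, had 124, 115 and 121 CPM with palmitate, against 317, 325 and 339 CPM with vehicle (log2 fold change -1.45, SE 0.0234, adjusted p = 1.82e-53, edgeR). Marchf6, a ubiquitin ligase of the endoplasmic reticulum, fell by 0.38, and the phosphodiesterase gene Pde4b fell by 0.48. Irs1, an adaptor of the insulin receptor, whose signal restrains lipolysis in fat, rose by 0.47.

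Angptl4, Plin2 and Hilpda are known both as PPAR targets and as hypoxia-responsive genes, so lists of each are given beside them. Of 17 tested PPAR targets, the members left out, 13 were higher, 2 lower and 2 not called, with a median log2 fold change of 0.56, beside 27.4% higher and 25.4% lower among all tested genes. Cpt1a rose by 0.65, Ucp2 by 0.55, Acadl by 0.56 and Acot1, which can share reads with close relatives, by 2.99. The 2 called lower were Ehhadh (log2 fold change -0.73, adjusted p = 3.07e-05, edgeR) and Acadm (-0.11, adjusted p = 0.00139, edgeR). This list, like the others, was chosen with earlier results of these data known. Of 21 tested HIF targets, 9 were higher, 4 lower and 8 not called, with a median log2 fold change of 0.05, beside the same shares of all tested genes. In this list Ldha (0.26), Bnip3 (0.53) and Egln1 (0.30) rose and Ndrg1 fell (-0.32), given as log2 fold changes. Angptl4, at 1.18, stood above the median of both lists, while Plin2, at 0.53, and Hilpda, at 0.27, stood above that of the HIF targets and below that of the PPAR targets. The part of either pathway in these differences was not tested.

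**Figure D4:**
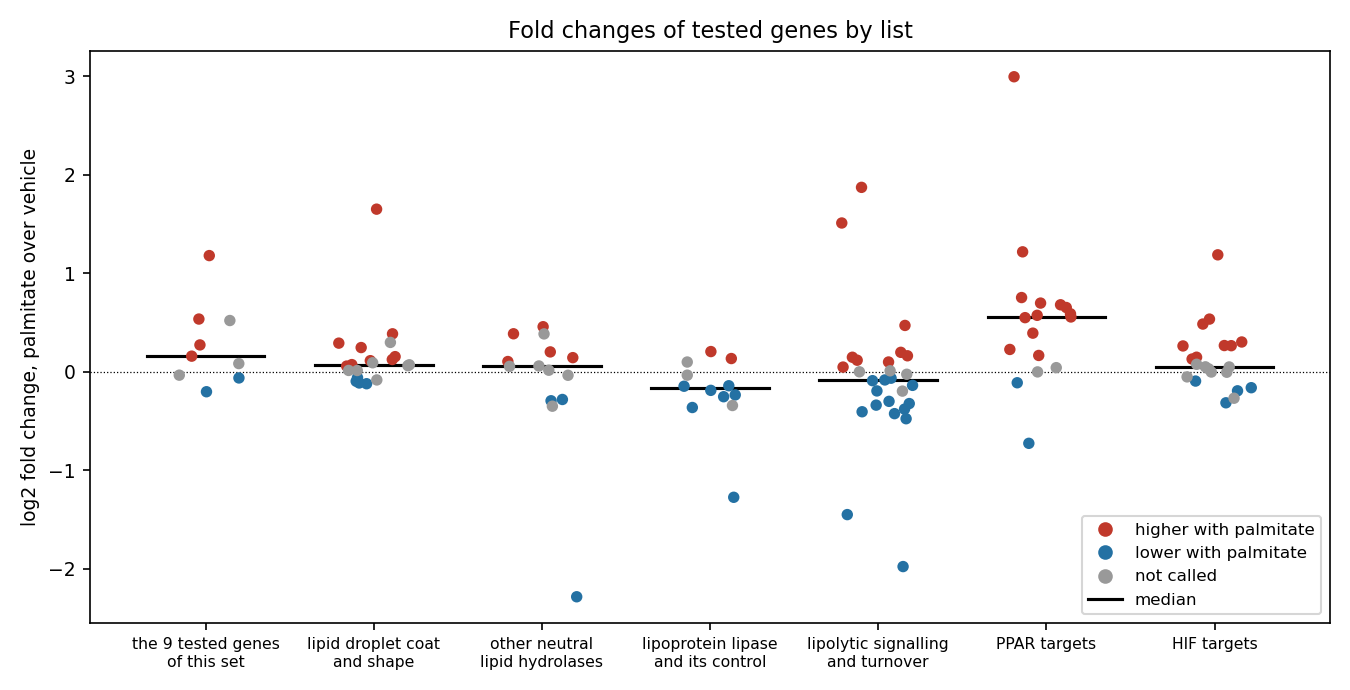
Log2 fold change, palmitate over vehicle, of every tested gene in the set of 9 and in 6 lists of related genes, coloured by call, with a line at each median. Medians lie between -0.17 and 0.16 except for PPAR targets, at 0.56.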

How the data were processed

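The authors deposited raw counts per gene, and the submitters' processing notes name STAR 2.6.1, FastQC 0.11.8, DESeq2 1.34.0, HTSeq and build mm39. A stranded kit for polyadenylated RNA was used, per the labels' protocols. The authors' deposited gene table gives log2 fold changes, p-values and q-values from DESeq2, and a score that signs the −log10 p-value, per the column description. Groups came from the sample titles. The count test was edgeR 4.0.16 with R 4.3.3 (TMM, filterByExpr with a minimum count of 10, robust glmQLFit and glmQLFTest, Benjamini-Hochberg over 14987 genes), checked on simulated data. The standard error is the log2 fold change over the root of F. Alternatives were DESeq2 1.42.0, limma 3.58.1 (voom), glmTreat, median-of-ratios scaling, no filter, thinning, a replicate block and each library left out. Libraries of a group differed by more than counting noise (chi-square over degrees of freedom 1.20 to 1.38), so none was taken for a copy. This does not show that they came from separate cultures. The common coefficient of variation that edgeR fitted beyond counting noise was 1.28%. Lengths and exon overlaps came from Gencode exons of build GRCm38, matched by Ensembl identifier for all 10 genes, and promoters from RefSeq, matched by symbol for 9. The members and lists were chosen with earlier results of these data known. Named genes were all members and up to 4 called genes per list by smallest p. Also named were 8 fixed neighbours of the members where tested, and the 3 genes most like Plin2 and Angptl4. Daglb, Plin5, Cidec, Pparg, Fabp4, Cd68, Ptprc, Col1a1, Cdh5, Ehhadh, Acadm, Rab18, Spg20, Osbpl2 and Vps13a were chosen after their values were seen.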

Additional observations from a re-analysis of the deposited data

How the results depend on the processing

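Plin2 and Angptl4 kept their direction and call under all 13 alternatives, with log2 fold changes of 0.51 to 0.55 and 1.138 to 1.205. Hilpda kept both under 12 of 13, lost only against a 1.2-fold minimum. Against that minimum (glmTreat) 968 genes were higher and 1307 lower, 2 members higher and 0 lower (also 0 lower at its unadjusted p under 0.05), and 21 list genes higher and 11 lower, against 47 and 34. The lists held 20, 14, 12, 27, 17 and 21 tested genes in the main fit. Of all tested genes 27.4% were higher and 25.4% lower by edgeR. By glmTreat 6.46% were higher and 15.2% called in either direction. Members called lower numbered 1 with no count filter and 0 with DESeq2 (also 0 at its unadjusted p under 0.05), against 2 with edgeR. Leaving out each library gave 3738 to 3908 genes higher and 3475 to 3572 lower, 4 members higher each time and 1 to 2 lower, and 44 to 50 list genes higher and 30 to 33 lower. Without vehicle replicate 2 those 4 lost Lipe and gained Abhd5. No member reversed. The replicate numbers did not pair the libraries (correlations of deviations -0.0065, 0.0090 and 0.013; not every library matched its own number best), and with a replicate block 4112 genes were higher and 3821 lower, with 4 members higher and 2 lower. Thinning took Mgll below the filter. At this depth genes under 1 CPM, such as G0s2, Mgll and Plin5, are limited by counting.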
